A study of Mus musculus with 50 samples.

Results

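The Rab, Arf and Arl proteins are small GTPases that direct membrane traffic. Their probes were taken as those whose platform gene symbol is Rab, Arf or Arl followed by a number and at most 1 letter, so that effectors and regulators such as Rab11fip3 and Arl2bp were left out. This gave 67 of the 20355 probes on the array and 51 of its 9930 named genes, with 57 probes for 42 Rab genes, 4 probes for 4 Arf genes and 6 probes for 5 Arl genes. The rule reads gene symbols and no measured value, but it was set with earlier results of these data known. Arl1, the Arl5 genes, Arf5, Arf6, Rab1a and Rab5a are among the relatives not analysed here.

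The series compared homozygous wobbler mice (wr/wr) with wild-type (wt) mice on 2-colour arrays. The testis group holds 10 wr/wr mice, each hybridised on 4 arrays, and the spinal cord group holds 3 wr/wr RNAs: pool1 and pool2, each from 4 mice and on 4 arrays, and the cord of mouse 5995 on 2 arrays. Every array set a wr/wr RNA against 1 pool of wt RNA of the same organ, with the mutant RNA in Cy5 on some arrays and in Cy3 on an equal number of others. The 9 animals that gave cord RNA also gave testis RNA, and mouse 5907 gave testis RNA alone. The labels give strain, tissue and mouse ID, with no age or genetic background stated, and count 10 wt mice per pool where the labelling protocol counts 6. The wobbler mutation lies in Vps54, and the array has 0 probes named Vps54, so the genotype itself was not checked.

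Each deposited value is a log2 ratio, read here as wr/wr over wt. The labels and files do not state that direction, which is taken as likely because the labels name the mutant channel first, and under the other reading every sign turns. Values below are means ± SD over RNAs, with each array centred on its median and the mean of the Cy5 arrays and the mean of the Cy3 arrays averaged within each RNA. A probe is called where the adjusted p of limma's moderated test against 0 (Benjamini-Hochberg over all probes of a tissue) is below 0.05, and "higher", "rose", "lower" and "fell" are used of called probes. Across all probes the Cy5 and Cy3 means ran against each other in all 3 cord RNAs (Spearman rho -0.0606 for mouse 5995, -0.2279 for pool1 and -0.0205 for pool2) and in 3 of the 10 testes, those of mice 5905, 5997 and 6065 (-0.2227, -0.1119 and -0.3093). Opposite-dye arrays of the same RNA had a median Pearson r of 0.0083 in testis and -0.0458 in cord, lower than same-dye arrays of different RNAs (0.0511 and 0.0794). By Spearman rho the medians were 0.1095 in testis and -0.0795 in cord, again lower than for same-dye arrays of different RNAs (0.1959 and 0.2386). Every cord value, and so the cord side of every tissue difference below, averages dye means that did not agree across probes. For single members they lay together (Rab36, 0.36 and 0.36) or apart (Rab23, -0.15 in Cy5 and 1.05 in Cy3). The deposited signs of the Cy3 arrays were kept, and whether those too read wr/wr over wt was not tested. If they read wt over wr/wr, the averages and all calls below would hold the dye effect and not the genotype effect. Because 1 wt pool stands for each organ, these p-values leave out the spread among wt mice. In whole organs, fewer cells of a type and less RNA per cell cannot be told apart.

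Rab proteins sit on membranes when bound to GTP, recruit motors, tethers and coats, and are drawn back into the cytosol by GDI when bound to GDP. Arf proteins recruit vesicle coats at the Golgi, and Arf-like proteins serve the Golgi, microtubules and cilia. Rab6 marks the Golgi, where it binds the GARP tether that contains Vps54. In the testis these GTPases supply the acrosome, which is built from Golgi vesicles, and in neurons they serve axonal transport and synaptic vesicle release.

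RefSeq (GRCm38.p6) gave a promoter for 44 of the 51 genes. The 250 bases before the start of 4 of them are shown because their testis calls held in at least 9 of the 10 fits that each left out 1 mouse, with all probes of the gene on 1 side of 0: Rab3a, Rab6a and Rab11a, which were higher, and Arl16, which was lower. Capitals mark TGACG or its reverse complement CGTCA, the core of the cAMP response element, which the transcription factors CREB and CREM bind. They lie at chr8:70754453-70754702 (+) for Rab3a, chr7:100607336-100607585 (+) for Rab6a, chr9:64737757-64738006 (-) for Rab11a and chr11:120467601-120467850 (-) for Arl16, and are written in the direction of the gene.
Rab3a: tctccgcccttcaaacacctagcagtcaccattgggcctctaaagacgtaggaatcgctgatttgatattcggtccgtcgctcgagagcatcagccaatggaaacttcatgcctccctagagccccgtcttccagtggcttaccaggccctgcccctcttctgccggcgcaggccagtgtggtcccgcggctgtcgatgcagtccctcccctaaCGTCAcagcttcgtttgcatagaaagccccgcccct
Rab6a: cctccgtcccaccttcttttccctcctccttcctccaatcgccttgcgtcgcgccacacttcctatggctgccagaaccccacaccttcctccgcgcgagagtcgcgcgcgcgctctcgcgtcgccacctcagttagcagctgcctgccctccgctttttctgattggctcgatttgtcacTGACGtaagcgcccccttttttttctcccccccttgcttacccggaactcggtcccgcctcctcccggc
Rab11a: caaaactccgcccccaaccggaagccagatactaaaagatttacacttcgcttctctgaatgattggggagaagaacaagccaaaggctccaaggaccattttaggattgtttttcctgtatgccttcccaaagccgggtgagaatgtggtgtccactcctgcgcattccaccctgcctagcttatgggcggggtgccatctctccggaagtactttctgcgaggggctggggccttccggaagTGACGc
Arl16: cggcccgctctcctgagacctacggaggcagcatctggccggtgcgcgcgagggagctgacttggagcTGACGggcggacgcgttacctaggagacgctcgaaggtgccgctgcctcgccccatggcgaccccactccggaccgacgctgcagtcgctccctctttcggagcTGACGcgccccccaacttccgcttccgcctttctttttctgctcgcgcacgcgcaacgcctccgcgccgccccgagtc
This core starts 36 bases before the start of Rab3a, 69 before that of Rab6a and 6 before that of Rab11a, and in Arl16 2 sites start 182 and 78 bases before its start. It was present, on either strand, in 62.5% of the 8 promoters of genes called higher and 60.0% of the 5 of genes called lower, against 45.5% of all 44 member promoters and 17.9% of 27025 promoters in the table. The member promoters were also rich in CpG, with a median of 18 CpG per window against 6 over all genes, and the core itself contains CpG. GC boxes (GGGCGG, either strand) were in 70.5% of member promoters against 32.9% of all, and TATAAA (either strand) in 3 of 44 against 3504 of 27025. CCAAT (either strand) was in 6 of the 8 promoters of genes called higher and 1 of the 5 of genes called lower, against 43.2% of member promoters and 34.5% of all.

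In the wr/wr testis, 13 of the 67 GTPase probes were called (19.4%, against 12.3% of all 20218 probes tested), 8 higher and 5 lower. Over all probes 7.28% were called higher and 5.06% lower. The higher genes were Rab3a, Rab6a, Rab31, Arl3, Rab11a, Rab14, Arf1 and Rab28, and the lower ones Arl16, Rab21, Rab39b, Rab22a and Rab3d. The called means were small, from 0.11 to 0.31 in size on the log2 scale. Members as a whole were not shifted far: their median was 0.02, against -0.01 for all probes, with 39 above 0 and 28 below. The median over members was between -0.01 and 0.08 in single mice. Both counts depended on single mice, as did the counts over all probes. The count of higher probes was 4 without mouse 5906, 5907, 5995 or 6335, 3 without mouse 6069 and 2 without mouse 6493. The count of lower probes was 3 without mouse 5995, 6065, 6069 or 6335, 2 without mouse 5906, 5907 or 6163 and 0 without mouse 6493. Calls over all probes were also fewer in these fits. From 1471 higher and 1023 lower they came to 573 and 425 of 20249 without mouse 6069. Without mouse 6493, 752 of 20243 probes were called (435 higher and 317 lower), beside 2 of 67 members.

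**Figure D1:**
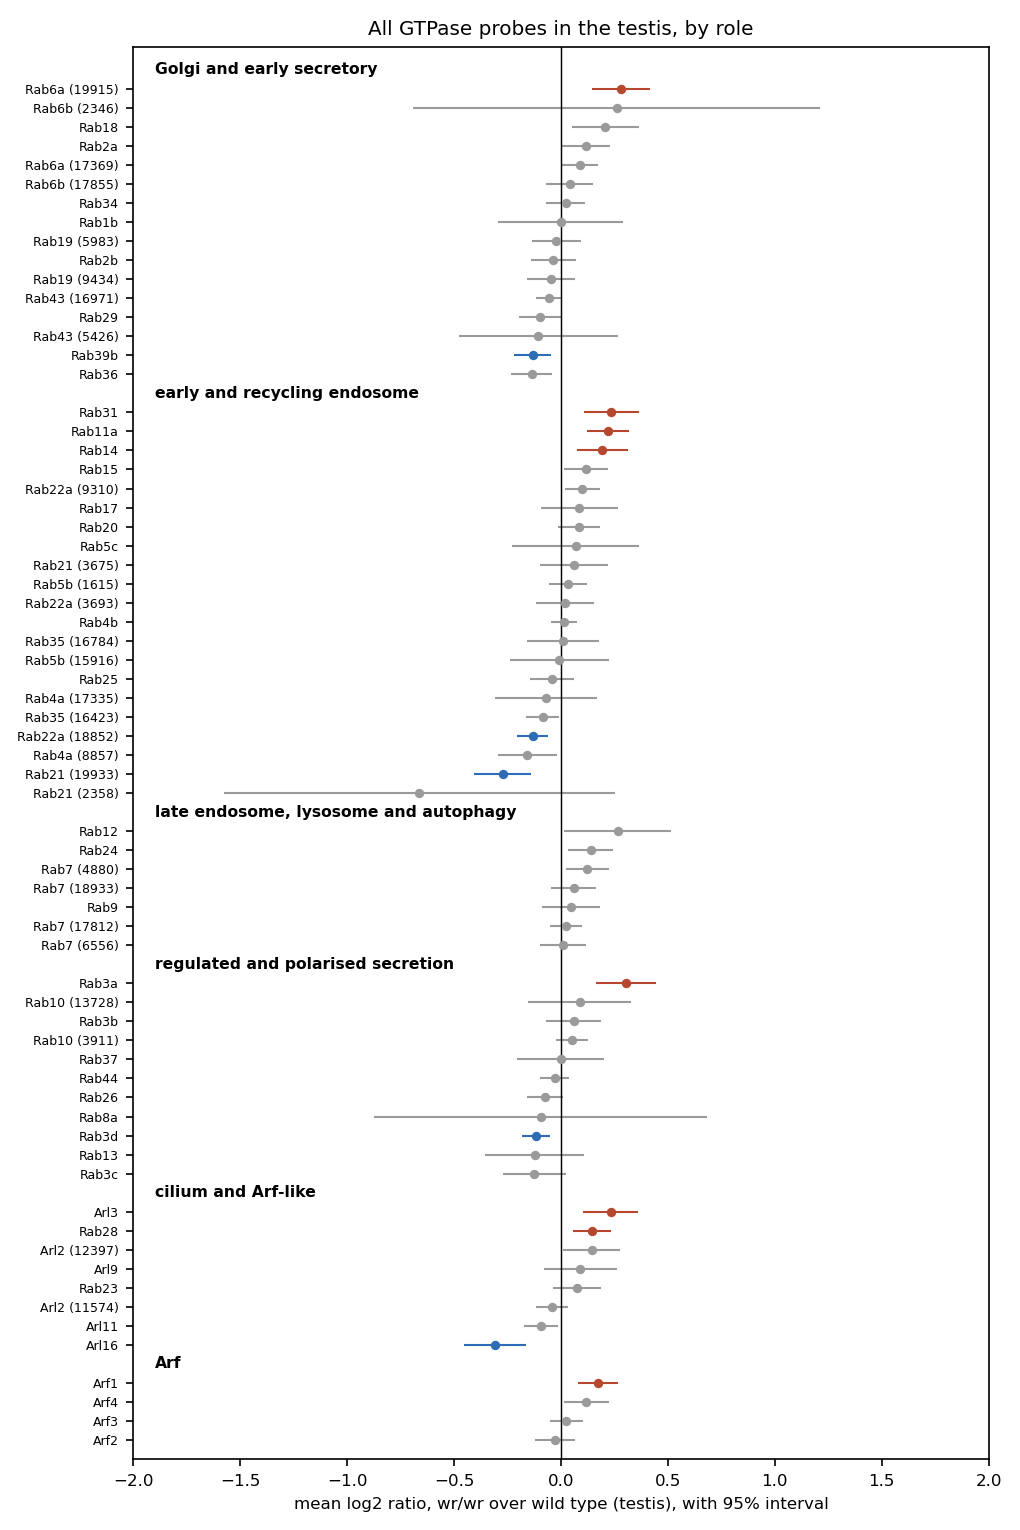
Mean log2 ratio (wr/wr over wt, x axis) of all 67 GTPase probes in the testis, with limma's 95% interval, grouped by role and sorted within each role. Red marks the 8 probes called higher, blue the 5 called lower and grey the rest; all 7 late endosome probes lie above 0 and none of them is called.

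Among the Golgi and early secretory GTPases, 16 probes of 12 genes were tested in testis, with 1 called higher and 1 lower. Rab6a, the Golgi GTPase that binds GARP, had a lowest, median and highest value of 0.03, 0.28 and 0.67 on probe 19915 over the 10 wr/wr testes. All 10 mice were above 0, and the probe rose by 0.28 ± 0.20 (1.22-fold, SD, n = 10; limma adjusted p = 0.0209). It kept its call without any single mouse except 6493 (adjusted p = 0.0542). The other Rab6a probe, 17369, averaged 0.09 ± 0.11 and was above 0 in 8 of 10 mice (limma adjusted p = 0.15), so that 2 probes of the gene had the same sign and different sizes. Rab6b, the brain-enriched paralogue, was not called on probe 17855 (0.04 ± 0.16). Its second probe, 2346, ran from -1.70 to 3.93 between mice, the highest being mouse 6493 with 1 floored value on a Cy5 array, and gives no usable mean.

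Rab39b, a neuronal GTPase, was the lower probe of this group. Its values in wr/wr testes were -0.26 at the lowest, -0.16 at the median and 0.14 at the highest, with 9 of 10 mice below 0, and it fell by 0.13 ± 0.12 (limma adjusted p = 0.0499). This call stands at the threshold: it was lost in 8 of the 10 fits without 1 mouse (all but those without mouse 5905 or 5997), with adjusted p up to 0.107. It was also lost with uncentred ratios, scaled arrays, either dye alone, the looser probe filter, robust moderation or values over 15 left out, and held with the probes of a gene averaged and without mice 5905, 5997 and 6065. Rab2a, which acts between the endoplasmic reticulum and the Golgi, averaged 0.12 ± 0.16 and its paralogue Rab2b -0.04 ± 0.15, neither called. Of the rest, Rab18, found on lipid droplets and the endoplasmic reticulum, averaged 0.21 ± 0.24 (limma adjusted p = 0.0806) and Rab36 -0.14 ± 0.13 (limma adjusted p = 0.0646). The other 7 probes of the group, of Rab1b, Rab19, Rab29, Rab34 and Rab43, had means between -0.11 and 0.02 without a call.

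Among the 21 early and recycling endosome probes (14 genes), 3 were higher and 2 lower. Rab11a, the GTPase of the recycling endosome, had a lowest value of 0.04, a median of 0.19 and a highest of 0.42. Every one of the 10 wr/wr testes was above 0. It rose by 0.22 ± 0.14 (1.17-fold; limma adjusted p = 0.0182) and kept its call without any single mouse. Rab31, which acts between the trans-Golgi network and endosomes, ranged from -0.05 through a median of 0.25 to 0.53, and rose by 0.24 ± 0.19 (limma adjusted p = 0.0298), with 8 of 10 mice above 0. Rab14, which acts on the same route, ranged from -0.02 through 0.13 to 0.52 and rose by 0.19 ± 0.18 (limma adjusted p = 0.042), with 9 of 10 mice above 0. These 2 calls were less steady than that of Rab11a: Rab31 lost its call without mouse 5906, 5995, 6069, 6163, 6335 or 6493 (adjusted p up to 0.0707), and Rab14 without those mice or 5907 (up to 0.0915).

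The lower endosomal probes belonged to genes whose probes disagreed. Rab21, an early endosomal GTPase of integrin traffic, had values of -0.64, -0.24 and 0.02 at the lowest, median and highest on probe 19933, with 9 of 10 mice below 0, and fell by 0.27 ± 0.20 (0.827-fold; limma adjusted p = 0.021). Without mouse 6493 its adjusted p was 0.0544. A second Rab21 probe, 3675, averaged 0.06 ± 0.24, and the third, 2358, -0.66 ± 1.45, where mouse 5906 stood at -4.54 with 1 floored value. Rab22a, another early endosomal GTPase, ran from -0.24 through -0.16 to 0.03 on probe 18852, with 9 of 10 mice below 0, and fell by 0.13 ± 0.09 (limma adjusted p = 0.0298), while its other 2 probes averaged 0.10 ± 0.11 and 0.02 ± 0.20. The Rab22a call was lost without mouse 5906, 5907, 5995, 6069, 6163 or 6493 (adjusted p up to 0.0708). With the probes of a gene averaged, neither Rab21 nor Rab22a was called. Rab15, an endosomal GTPase of neurons, averaged 0.12 ± 0.15 (limma adjusted p = 0.119), and no probe of Rab4a, Rab4b, Rab5b, Rab5c, Rab17, Rab20, Rab25 or Rab35 was called.

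All 7 probes of the late endosomal and autophagic group (Rab7, Rab9, Rab12 and Rab24) were above 0 in the testis, with a median of 0.06, against 46.6% of all probes above 0, and 4 of the 7 measure Rab7. None was called, and 3 had an unadjusted p below 0.05, against 30.3% of all probes. Rab12, which acts in receptor degradation, was above 0 in all 10 wr/wr mice, from 0.03 through a median of 0.13 to 1.33, with a mean of 0.26 ± 0.39 (limma adjusted p = 0.144). Rab24, linked to autophagosomes, was likewise above 0 in all 10 mice, from 0.02 through 0.07 to 0.50 (mean 0.14 ± 0.15, limma adjusted p = 0.0849). The 4 probes of Rab7, which takes late endosomes to lysosomes, averaged 0.12, 0.06, 0.02 and 0.01.

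Of 11 probes for GTPases of regulated and polarised secretion (10 genes), 1 was higher and 1 lower, both in the Rab3 family. Rab3a, which controls vesicle release at synapses and exocytosis of the acrosome, had a lowest value of -0.10, a median of 0.39 and a highest of 0.54 over the wr/wr testes. Only 1 mouse was below 0. It rose by 0.31 ± 0.21 (1.24-fold; limma adjusted p = 0.0188), the highest mean among the 67 probes, and kept its call without any single mouse. Rab3d, a GTPase of secretory granules, ran the other way, from -0.25 through -0.11 to -0.02, with all 10 mice below 0. It fell by 0.11 ± 0.07 (limma adjusted p = 0.0326). This call was lost without mouse 5906, 5907, 5997, 6065, 6163, 6335 or 6493 (adjusted p up to 0.0685). The other Rab3 paralogues were not called, Rab3b at 0.06 ± 0.19 and Rab3c at -0.12 ± 0.22. Whether these probes also bind transcripts of their close paralogues was not tested.

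Among the 8 probes of ciliary and Arf-like GTPases (7 genes), 2 were higher and 1 lower. Arl3, which releases lipid-modified proteins into cilia, ran from -0.05 through 0.21 to 0.65, with 9 of 10 mice above 0. It rose by 0.23 ± 0.19 (limma adjusted p = 0.0298) and lost the call without mouse 5906, 5907, 5995, 6069 or 6493 (adjusted p up to 0.0679). Rab28, a GTPase of photoreceptor cilia, ran from -0.04 through 0.17 to 0.31 with 9 of 10 mice above 0 and rose by 0.15 ± 0.12 (limma adjusted p = 0.039). Its call was lost without mouse 5906, 5907, 5995, 5997, 6065, 6069, 6335 or 6493 (adjusted p up to 0.0857). Arl16, an Arf-like protein known in human cells as an inhibitor of the RNA sensor RIG-I, had values of -0.79, -0.28 and -0.04 at the lowest, median and highest. All 10 wr/wr testes were below 0, and it fell by 0.31 ± 0.22 (0.807-fold; limma adjusted p = 0.0196), with an adjusted p of 0.0502 without mouse 6493. Arl2, a partner of the tubulin folding factors, gave 2 uncalled probes of opposite sign (0.14 ± 0.20 and -0.04 ± 0.09).

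Of the 4 Arf probes 1 was higher. Arf1, which recruits the COPI coat to the Golgi, had a lowest value of 0.01, a median of 0.12 and a highest of 0.39, so that all 10 wr/wr testes were above 0. It rose by 0.17 ± 0.13 (1.13-fold; limma adjusted p = 0.0276) and lost the call without mouse 5907, 6069, 6335 or 6493 (adjusted p up to 0.0655). Its class I relatives Arf2 and Arf3, close in sequence, averaged -0.03 ± 0.13 and 0.03 ± 0.09 and were not called. Arf4, of the second class, averaged 0.12 ± 0.15 (limma adjusted p = 0.126), but 0.43 with the mutant RNA in Cy5 and -0.19 with it in Cy3.

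**Figure D2:**
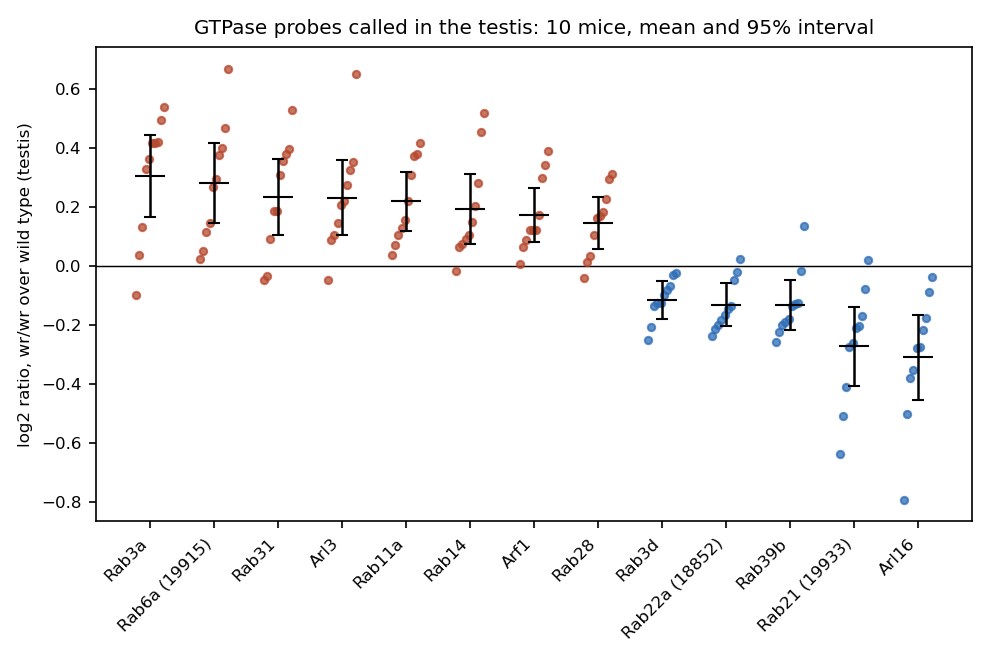
Log2 ratio (wr/wr over wt, y axis) of the 13 called GTPase probes in the testis. Each point is 1 of the 10 mice, sorted by value, and the bars are the mean and limma's 95% interval. Mice lie on both sides of 0 for 8 of the probes, and all on 1 side for Rab6a (19915), Rab11a, Arf1, Rab3d and Arl16.

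For all 13 called probes the mean over mice had the same sign in both dye orientations. The calls rest on the average of these same dye means, which favours equal signs. The share with equal signs among all called probes was not computed. The dye means lay close together for Arl3 (0.24 in Cy5 and 0.23 in Cy3) and Rab6a probe 19915 (0.27 and 0.29), and further apart for Rab3a (0.39 and 0.22), Arf1 (0.23 and 0.11) and Rab22a probe 18852 (-0.05 and -0.21). With the arrays of 1 orientation alone, 12 of the 13 calls were lost in at least 1 orientation, the exception being Rab21. Without the 3 mice whose dye means opposed each other, an alternative chosen after seeing the data, 11 of the 13 calls remained, and Rab28 and Rab3d were lost.

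**Figure D3:**
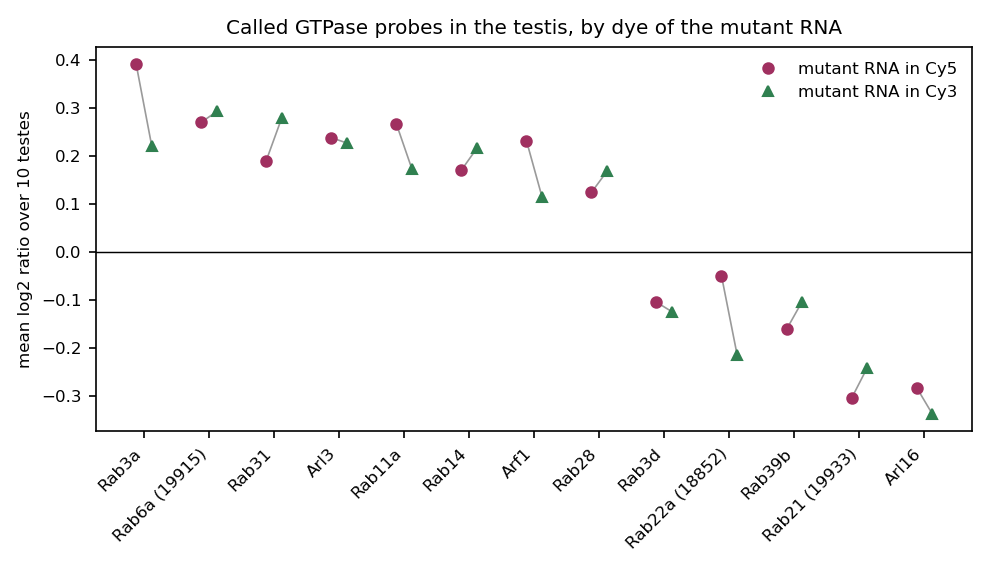
Mean log2 ratio over the 10 testes (y axis) of the 13 called GTPase probes, from arrays with the mutant RNA in Cy5 (circles) and in Cy3 (triangles). Each pair lies on 1 side of 0, which calling probes on the average of these same means favours. The pairs of Rab3a, Rab11a, Arf1 and Rab22a (18852) lie furthest apart.

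The proteins that load, unload and read these GTPases were listed from textbook knowledge. Of 90 regulators and effectors listed, 57 were on the array with 103 testis probes, of which 5 were higher and 3 lower (7.77%, against 12.3% of all probes; median 0.02). The count of 8 was 5 without mouse 6069 or 6163, 4 without mouse 5995 or 6335, 3 without mouse 5907 and 1 without mouse 6493. The fit without mouse 6493 called 752 of 20243 probes over the whole array. The 8 calls fell on 8 genes, each on 1 probe. For Rab11fip3, a Rab11 effector, probe 1243 rose by 0.28 ± 0.19 (limma adjusted p = 0.0196), while its other probes, 452 and 18220, averaged -0.03 and 0.0044 (limma adjusted p = 0.588 and 0.963). For Arl2bp, which binds Arl2 and Arl3, probe 13010 rose by 0.25 ± 0.18 (limma adjusted p = 0.0204), and probe 5543 averaged 0.06. For Gbf1, the exchange factor for Arf1 at the Golgi, probe 14756 fell by 0.71 ± 0.59 (limma adjusted p = 0.0262), while probes 5240 and 8385 lay above 0, at 0.02 and 0.05 (limma adjusted p = 0.907 and 0.499). Rab3ip, Rabac1 and Arfgap2 were also higher on 1 of 2 probes and Rin1 and Rims1 lower on 1 of 2, with the second probe on the same side of 0 and not called. In cord 0 of 83 such probes were called by limma, 6 of them with an unadjusted p below 0.05 (8.65% of all probes had one). The tissue difference was called for 13 of 83 (15.7%, against 21.2% of all probes), with 7 above 0 and 6 below. Without cord pool1 it was called for 20 of 83, against 4684 of 17053 probes, and in the paired fit for 0. The regulators' share of calls was thus below that of all probes in the testis and in the difference.

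Cell type markers moved in the same testes. Of 6 Leydig cell probes 3 were lower, with a list median per mouse from -0.42 to -0.01, and 1 lay above 0 (Hsd3b1, 0.25, not called). Of 6 Sertoli cell probes 4 were higher, with medians from 0.06 to 0.45, and 2 lay below 0. Sox9 was higher on probe 1477 (0.19) and averaged -0.14 on probe 18047, not called. The 3 meiotic germ cell probes (Ldhc, Pttg1 and Tdrd1) were all higher, with medians from 0.06 to 0.54. None of 7 spermatid probes was called (medians from -0.51 to 0.49). Of 9 macrophage probes 4 were lower and 4 lay above 0 (medians from -0.31 to 0.015). Lyz2 was lower on probe 17239 (-0.18) and averaged 0.27 on probe 12258, not called. The part of these cell types in the GTPase ratios was not tested, and ratios without intensities do not show the level of any marker.

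In the wr/wr spinal cord no GTPase probe was called. Of 61 members tested by limma 0 passed, against 0.0% of all 17055 probes, and the smallest adjusted p was 0.542. An unadjusted p below 0.05 was found for 4 of 61 members, against 1476 of 17055 probes (8.65%). All 3 RNAs were below 0 for 12 of 61 members and above 0 for 8 of 61, against 3538 and 3161 of 17055 probes (20.7% and 18.5%). The members' shares were thus below those of all probes in each of these 3 counts. The median over members was -0.05, against -0.0032 for all probes. In the median RNA it was 0.03 on the Cy5 arrays and -0.15 on the Cy3 arrays, so its sign differed between the dyes. Values follow for the 6 probes with the smallest p in each direction.

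Below 0, Rab6a probe 19915 had -0.51 in mouse 5995, -0.25 in pool1 and -0.38 in pool2, a mean of -0.38 ± 0.13 (SD, n = 3), while Rab6a probe 17369 had 0.06, -0.04 and -0.28. Rab6b probe 17855 had -0.22, -0.31 and -0.44 in the same order (mean -0.33 ± 0.11), with dye means of 0.03 in Cy5 and -0.68 in Cy3. Arf2 had -0.29, -0.21 and -0.38, and Arf3, an abundant Arf of brain, -0.15, -0.38 and -0.31. All 3 cord RNAs were below 0 for each of these but the second Rab6a probe, and none was called. Rab35 probe 16784 had -0.33, -0.20 and -0.29, and Rab7 probe 18933 had 0.03, -1.16 and -0.67.

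Above 0, Rab35 probe 16423 had 0.76, 0.45 and 0.30 in mouse 5995, pool1 and pool2 (mean 0.50 ± 0.23). The 2 probes of Rab35, a GTPase of fast endosomal recycling, thus lay on opposite sides of 0 in all 3 cord RNAs. Rab23, an inhibitor of Hedgehog signalling at the cilium, had 0.56, 0.21 and 0.58 (mean 0.45 ± 0.21), but -0.15 in Cy5 and 1.05 in Cy3. Rab36 had 0.57, 0.22 and 0.29, with a mean of 0.36 in each dye orientation. Arl9, an Arf-like protein, had 2.06, 0.56 and 0.42, Rab17, of polarised epithelia, 0.51, -0.0025 and 0.64, and Rab25, of recycling endosomes, 0.32, 0.08 and 0.20. The high value of Arl9 came from mouse 5995, whose cord was on 2 arrays only. Arl16, lower in the testis, had 0.60, -0.79 and 1.25 in cord, an SD of 1.04.

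Cell type markers stood apart in the same cord RNAs, also without a call. All 8 macrophage and microglia probes were above 0 (list median per RNA from 0.58 to 0.67), 5 of 6 astrocyte probes were above 0 (0.37 to 0.67), and all 5 oligodendrocyte probes were below 0 (-0.71 to -0.44). Of 6 neuron probes 4 were below 0, with list medians from -0.34 to 0.02. Their part in the GTPase values was not tested.

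The wr/wr ratios of the GTPases differed between testis and cord for 18 of 61 members (29.5%, against 21.2% of 17005 probes), tested as testis minus cord over the 13 RNAs. The test pools 1 spread over both tissues, though cord RNAs spread more (median SD over all probes 0.264, against 0.173 in testis). The p-values and intervals of the differences can thus be too small, and unequal spread was not fitted. Testis was above cord for 13 of 61 members, against 1836 of 17005 probes (10.8%). It was below cord for 5 of 61, a share under that of all probes (1768 of 17005, 10.4%). With the cord and testis values of the same animals paired (the replicate block, which leaves 3 differences), 0 of the 18 passed limma's test, nor did any of 17017 probes, 2144 of which had an unadjusted p below 0.05. With arrays of 1 dye alone, 15 of the 18 calls were lost in at least 1 orientation, all but those of Rab6a, Rab14 and Rab36. Without cord pool2 or testis mouse 6335 the count was 11 of 61, where 3380 of 17198 and 2871 of 17011 probes were called. Without cord pool2 the members' share was thus no longer above that of all probes. For 11 of the 18 the testis mean was above 0 and the cord mean below, and for 3 the reverse. Picking probes by their difference favours such opposite signs, and no cord mean was called. The share of opposite signs among all probes called in the difference was not computed. Differences are given with the distance from the mean to either end of their 95% interval after the ± sign. Overlap between the tissues is described only for probes already picked by this test, and its share over all probes was not computed.

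Rab6a probe 19915 had the highest called difference. The 10 testes lay between 0.03 and 0.67 and the 3 cords between -0.51 and -0.25, with no overlap. The difference was 0.66 ± 0.27 (limma adjusted p = 0.00501), and it held without any single RNA. Its other probe differed by 0.18 ± 0.20, not called. Rab6b probe 17855 differed by 0.37 ± 0.22 (limma adjusted p = 0.0254), with testes from -0.19 to 0.32 above cords from -0.44 to -0.22, and lost the call without cord pool2 (adjusted p = 0.0861) or with its probes averaged (limma adjusted p = 0.46). For Rab2b, Arf2 and Rab7 probe 18933 the testis was near 0 (-0.04, -0.03 and 0.06) and the cord at -0.53, -0.29 and -0.60. Their SD between cord RNAs was 0.52, 0.08 and 0.60, against 0.15, 0.13 and 0.15 between testes. Rab2b lost the call in 10 and Arf2 in 9 of the 13 fits without 1 RNA, both of them without cord 5995 or pool2 (adjusted p up to 0.26 and 0.134), and Rab7 probe 18933 without pool1 or pool2 (up to 0.0943). The other 3 Rab7 probes were not called, with differences of -0.14, 0.15 and 0.15 and cord means of 0.17, -0.03 and -0.14. With the 4 Rab7 probes averaged the difference was 0.20 ± 0.18 and not called (limma adjusted p = 0.0959). Arf3 likewise averaged 0.03 in testis and -0.28 in cord (difference 0.31 ± 0.17, limma adjusted p = 0.0171, and 0.0524 without cord pool1). All 4 Arf differences were above 0, and 3 of them passed.

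The other probes with testis above cord were Rab31 (0.53), Rab3a (0.50), Rab14 (0.49), Arf1 (0.44), Arl3 (0.40), Rab15 (0.34) and Rab11a (0.34). In each of these 7, picked by their difference, the testis mean was above 0 and the cord mean below 0, with no cord mean called. For Rab3a the testes lay between -0.10 and 0.54 and the cords at -0.21, -0.10 and -0.28, so that the groups touched but did not cross (lowest testis -0.099, highest cord -0.101). For Rab14 the cords stood at -0.04, -0.39 and -0.45, all below the lowest testis. For Rab31 the cords stood at -0.57, -0.01 and -0.31 and overlapped the lowest testes. Single RNAs carried several of these: Arf1 and Rab31 lost the call without cord 5995 (adjusted p = 0.106 and 0.0897), Rab3a and Rab14 without pool2 (0.0507 and 0.0595), and Rab15 without cord 5995, pool2 or testis mouse 6069 or 6335 (up to 0.132). Arl3 and Rab11a lost it without pool1, pool2 or testis mouse 5907, 5995, 6069, 6163, 6335 or 6493 (up to 0.179 and 0.154), and Arl3 also without mouse 5906.

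Testis was below cord for Rab35 probe 16423, Rab36, Rab21 probe 19933, Rab23 and Arl9. Rab35 probe 16423 lay between -0.29 and 0.02 in testes and between 0.30 and 0.76 in cords, a difference of -0.59 ± 0.20 (limma adjusted p = 0.00261). Rab36 lay between -0.31 and 0.07 in testes and between 0.22 and 0.57 in cords, a difference of -0.49 ± 0.22 (limma adjusted p = 0.0065). The groups did not overlap for either, and both calls held without any single RNA. The second Rab35 probe, 16784, ran the other way (0.28 ± 0.32, not called), and the Rab35 call was lost with both probes averaged (-0.11 ± 0.24, limma adjusted p = 0.509). Arl9 differed by -0.92 ± 0.60, and by -0.40 without cord 5995 (adjusted p = 0.156). Rab23 differed by -0.38 ± 0.25 and Rab21 probe 19933 by -0.47 ± 0.31. Both calls were lost without cord 5995 or testis mouse 6069, 6163, 6335 or 6493 (adjusted p up to 0.123 and 0.199), that of Rab23 also without pool2 or mouse 5905 or 5906, and that of Rab21 without the testis of mouse 5995. Rab21 probe 3675 differed by 0.07 ± 0.34, and with the 3 Rab21 probes averaged the difference was not called (-0.39 ± 0.55, limma adjusted p = 0.288).

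**Figure D4:**
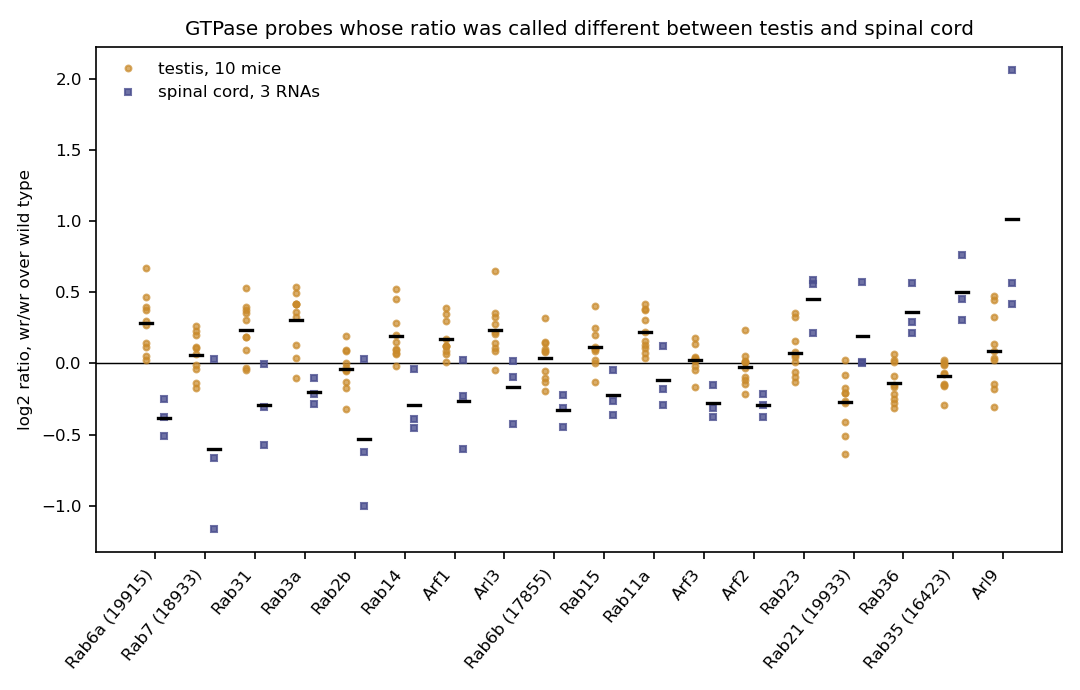
Log2 ratio (wr/wr over wt, y axis) of the 18 GTPase probes whose ratio was called different between the tissues, with the 10 testes (circles, left) and the 3 spinal cord RNAs (squares, right) and black bars at the means. Probes run from the highest to the lowest difference, testis minus cord. Rab6a (19915), Rab6b (17855), Rab3a, Rab14, Rab36 and Rab35 (16423) have no overlap between the tissues. The share of all probes without overlap was not computed.

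Several GTPases were measured by more than 1 probe, which shows how far 1 probe stands for its gene. Of the 12 such genes, 7 had all probes on 1 side of 0 in the testis. Rab7 agreed on all 4 probes and Rab6a, Rab10 and Rab4a on both of theirs, while Rab21 and Rab22a, each with 3 probes, did not. Nor did the probes of Arl2, Rab5b and Rab35. In cord the 2 probes of Rab19 averaged 0.41 and -0.41, and those of Rab35 0.50 and -0.27. Probe means lay on both sides of 0 in cord for Rab7, Rab10, Rab21, Rab22a and Rab43 too. Across the family, the SD between mice had a median of 0.161 in testis and 0.212 between cord RNAs, against 0.173 and 0.264 over all probes. Of the members' 3301 values, 5 on 4 probes (Rab5c, Rab6b, Rab20 and Rab21) were above 15 in size, where 1 channel is read as floored.

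**Figure D5:**
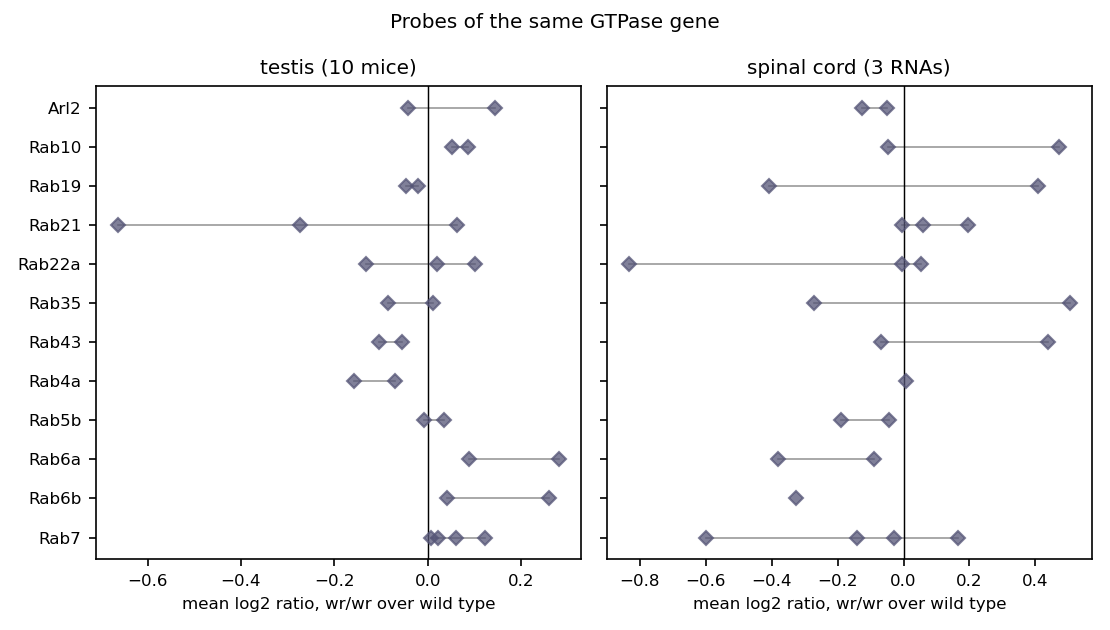
Mean log2 ratios (wr/wr over wt, x axis) of the probes of each of the 12 GTPase genes with more than 1 probe, in testis (left) and spinal cord (right), each diamond 1 probe. Probes lie on both sides of 0 in the testis for Arl2, Rab5b, Rab21, Rab22a and Rab35. In cord they do so for Rab7, Rab10, Rab19, Rab21, Rab22a, Rab35 and Rab43.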

How the data were processed

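Total RNA of testes and spinal cords was labelled indirectly with Cy3 or Cy5, per the labels' protocols. The authors deposited 1 ratio per probe and array, taken as log2, the base being unstated. How it was background-corrected and normalized is not given in the sources here, and intensities were not used, so signal over background is unknown. Genes were named from the platform annotation: 14030 of 20355 probes have 1 symbol, 5 several and 6320 none. All 51 member genes matched RefSeq by Entrez ID.

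Each array was centred on its median, arrays of 1 dye were averaged per RNA, and the Cy5 and Cy3 means were averaged. Probes with both orientations in at least 8 testis mice or all 3 cord RNAs were fitted in limma (version 3.58.1, under R 4.3.3; lmFit and eBayes against 0), with Benjamini-Hochberg adjustment over all probes and a threshold of 0.05. This left out 6 member probes in cord, of Rab1b, Rab3d, Rab4a, Rab5c, Rab6b and Rab8a. Tissue differences were fitted over 13 RNAs with 1 pooled spread, though the cord RNAs spread more than the testes. The fit was tested on simulated data drawn without a dye effect. That test checks the code and does not bear on the calls here or on the lack of calls in cord. Cord and testis RNAs come from the same mice. After subtraction of the tissue means, cord and testis values of the same animals correlated across probes at r = 0.00842 for mouse 5995, -0.00867 for pool1 and 0.00547 for pool2.

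Arrays of 1 dye correlated with each other at a Pearson r of -0.0397 or above. Opposite-dye arrays of 1 RNA correlated at a Pearson r of -0.1682 to 0.1358 in testis and -0.1843 to 0.019 in cord. The deposited signs were kept on every array, and turned signs on the Cy3 arrays were tried as an alternative. Values above 15 in size were kept. These large values all lay above 0 on the Cy5 arrays. On the Cy3 arrays all of them lay below 0. What this means for the direction of the Cy3 ratios was not tested. Named probes are those called in testis or in the difference, the 6 with the smallest cord p in each direction, those of Rab2, Rab6, Arf and other Golgi GTPases, and further probes of the same genes. The members, roles, regulators and markers were chosen with earlier results of these data known. Alternatives covered centring, scaling, dye, sign, filter, moderation, probe averaging, the pairing and each RNA left out, and 2 were added after seeing the data.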

Additional observations from a re-analysis of the deposited data

Results flagged for a closer look

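In 4 of the 37 named probes 1 testis stood apart from the other 9 by Dixon's test at 95%, which chance gives for about 1 in 20 groups. Arf4 was at 0.47 in mouse 5907, against -0.05 to 0.21 in the others. Rab21 probe 2358 was at -4.54 in mouse 5906 and Rab6b probe 2346 at 3.93 in mouse 6493, each with 1 floored value. Rab22a probe 3693 was at -0.53 in mouse 6065, against -0.03 to 0.18 in the others.

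The wr/wr ratio differed between testis and cord, by the limma test of the difference, for 18 probes. Testis minus cord was above 0 for Rab6a probe 19915 (0.66), Rab7 probe 18933 (0.66), Rab31 (0.53), Rab3a (0.50), Rab2b (0.49), Rab14 (0.49), Arf1 (0.44), Arl3 (0.40), Rab6b probe 17855 (0.37), Rab15 (0.34), Rab11a (0.34), Arf3 (0.31) and Arf2 (0.27). It was below 0 for Arl9 (-0.92), Rab35 probe 16423 (-0.59), Rab36 (-0.49), Rab21 probe 19933 (-0.47) and Rab23 (-0.38). Other probes of these genes lay on the other side of 0 for Rab7 (17812 at -0.14), Rab35 (16784 at 0.28) and Rab21 (3675 at 0.07), and the calls of Rab6b, Rab7, Rab35 and Rab21 were lost with the probes of a gene averaged. None of the 18 passed when the tissues were paired by animal.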

How the results depend on the processing

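Centring, scaling, the filter, robust moderation and leaving out values above 15 each kept the 4 counts within 1.5 times, but Rab39b lost its testis call under each of these 5. Of the differences, Rab23 was lost with scaling and Arf2 and Rab2b with the looser filter. With the Cy5 arrays alone the lower testis count was 3, the difference count 5 and the cord median 0.033; with the Cy3 arrays alone the higher testis count was 2 and the medians 0.0528 in testis and -0.158 in cord. Averaging the probes of a gene left 3 lower in testis and took the difference calls of Rab6b, Rab7, Rab21 and Rab35. Leaving out 1 RNA gave 2 to 8 higher and 0 to 5 lower in testis and 11 to 18 differences. Over all probes these fits gave 435 to 1538 higher and 317 to 1042 lower in testis, and 2843 to 4684 differences. Without mice 5905, 5997 and 6065 there were 11 differences, and in the paired fit (replicate block), with 3 differences, 0. The signs of the Cy3 arrays were also turned. If all arrays read wr/wr over wt, the turned fit holds the dye effect in place of the genotype effect. If the Cy3 arrays read wt over wr/wr, the main fit and its calls do so instead. Which of these holds was not tested. With the signs turned, 1 testis probe would be higher, 0 lower and 4 differences called. The medians would be -0.0176 in testis and 0.0698 in cord. Signs then reversed in testis for Arl16 (0.0274), Rab14 (-0.023), Rab22a (0.0822), Rab28 (-0.0221), Rab31 (-0.0447), Rab3d (0.00998) and Rab6a (-0.0114). Differences reversed for Arf1 (-0.0689), Arf3 (-0.00948), Arl3 (-0.21), Arl9 (0.00525), Rab11a (-0.22), Rab14 (-0.0015), Rab15 (-0.43), Rab23 (0.49), Rab2b (-0.12), Rab31 (-0.20), Rab35 (0.13), Rab3a (-0.13), Rab6a (-0.0407), Rab6b (-0.23) and Rab7 (-0.22). With the Cy5 arrays alone Rab15 (-0.0916) and Rab23 (0.12) reversed. Apart from the sign and the smaller numbers of samples, the cause was not tested. No intensities were used, so signal over background sets no limit that could be given here.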
